A study of Mus musculus with 8 samples.

Results

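Heat shock proteins and their J-domain partners are the cell's protein-folding machinery, and their genes were read here in hearts lacking the histone deacetylase HDAC3. The set was every gene symbol of the platform gene table beginning with Hspa, Hspb, Hsph, Hsp90, Dnaja, Dnajb or Dnajc, together with Hspd1, Hspe1, Cryab and Hsf2. It held 74 genes with a transcript cluster of their own, out of 19933 genes on the array. Hsf1 and Hsp90ab1 were not analysed here, and Hspa1b was read only by a cluster it shares with Hspa1a. The hearts came from male C57BL/6 mice aged 6 weeks and fed normal chow, with 4 Hdac3 knockout (KO) mice and 4 wild-type (WT) mice, and total RNA of each heart was hybridised to its own Affymetrix Mouse Gene 1.0 ST array. The series text calls the knockout MCH3-KO. The labels name neither the promoter that drove the deletion nor any allele carried by the WT mice. As background from knowledge of the published line and not from these labels, the deletion was driven by the muscle creatine kinase promoter, which is active in heart and skeletal muscle, so other cells of the heart keep the gene. Titles call the arrays biological replicates, so each array stands for 1 animal.

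HSP70 proteins bind exposed stretches of unfolded protein and release them when ATP is exchanged. J-domain proteins, named after bacterial DnaJ, bring clients to an HSP70 and trigger its ATPase, while HSP110 proteins act as its exchange factors. HSP90 proteins mature signalling clients, small heat shock proteins hold unfolded clients without ATP and are abundant in striated muscle, and the HSP60 chaperonin folds proteins in mitochondria. Heat shock factor 1 drives the cytosolic genes during heat or proteotoxic stress, whereas the unfolded protein response drives the chaperones of the endoplasmic reticulum (ER).

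The values given are log2 of the deposited probe intensity, a relative brightness that can be compared between hearts for 1 gene but not between genes. Array medians lay between 54.1 and 56.5 on the linear scale, and arrays correlated at 0.995 to 0.997 within KO, 0.993 to 0.996 within WT and 0.989 to 0.992 between the groups (Pearson, across genes). Hdac3 itself averaged 8.57 ± 0.05 in KO hearts and 10.10 ± 0.08 in WT hearts (SD, n = 4 each), without overlap, so the KO signal was 34.4% of WT. Each difference below subtracts the WT mean from the KO mean (log2), and a gene was called at an adjusted p under 0.05 (limma, two-sided, Benjamini-Hochberg over the 14950 genes above a floor on dim signal). The 8 cardiomyocyte markers (5 not past the threshold, 3 lower) averaged -0.17 to -0.15 in KO hearts and -0.01 to 0.01 in WT hearts, relative to the WT mean. All 11 macrophage markers that passed the floor were higher in KO, and their mean over the list was 1.01 to 1.28 in KO hearts against -0.13 to 0.07 in WT hearts. One of them, Aif1, passed only through its KO values, 4.86 to 5.07, against 4.09 to 4.43 in WT hearts, all below the floor. Lymphocyte (0 of 3) and endothelial (0 of 5) markers had no call, also at an unadjusted p under 0.05 in limma, and 2 of 6 fibroblast markers rose. Of 3 atrial markers 1 rose, Sln by 0.76, and the list mean was -0.09 to 0.56 in KO hearts against -0.86 to 0.41 in WT hearts, where WT replicate 4 was lowest. Of 5 skeletal muscle markers tested, 1 rose, Acta1 by 1.27, and 1 fell, Ckm by 0.25, and the heart also expresses both. Of 2 erythroid markers Alas2 fell by 0.33. Whether the cell types behind these markers have a part in the chaperone values below was not tested. In a whole heart, fewer cells of a type and less RNA per cell cannot be told apart.

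Of the 74 genes, 69 were tested and 5 were too dim (Dnajb3, Dnajb7, Dnajc5b, Dnajc5g and Dnajc22). Of those tested, 11 rose and 9 fell in KO hearts, so 29.0% were called where 24.6% of all genes tested were called. For the directions apart, 15.9% of the members rose against 10.8% of all genes, and 13.0% fell against 13.9% of all genes. These shares lie near the background, and the median difference of the members was -0.01, like that of all genes at -0.01. KO and WT arrays did not overlap for 18 of the 20 called members. That count largely follows from the calls, which rest on the same values, and adds no separate evidence. Over all 69, the KO hearts lay wholly above the WT hearts for 12 members and wholly below for 11, where all genes tested had 11.7% above, 16.8% below and 28.6% in either direction. Only Dnajc3, Dnajb4 and Hspb3 were both called and changed by at least 1.5-fold. Among the 49 members that did not pass, 46 differed by less than 0.2, and the 95% interval of a typical member reached 0.14 to either side of its difference (median). Without WT replicate 4 the number of members that fell was 5.

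**Figure D1:**
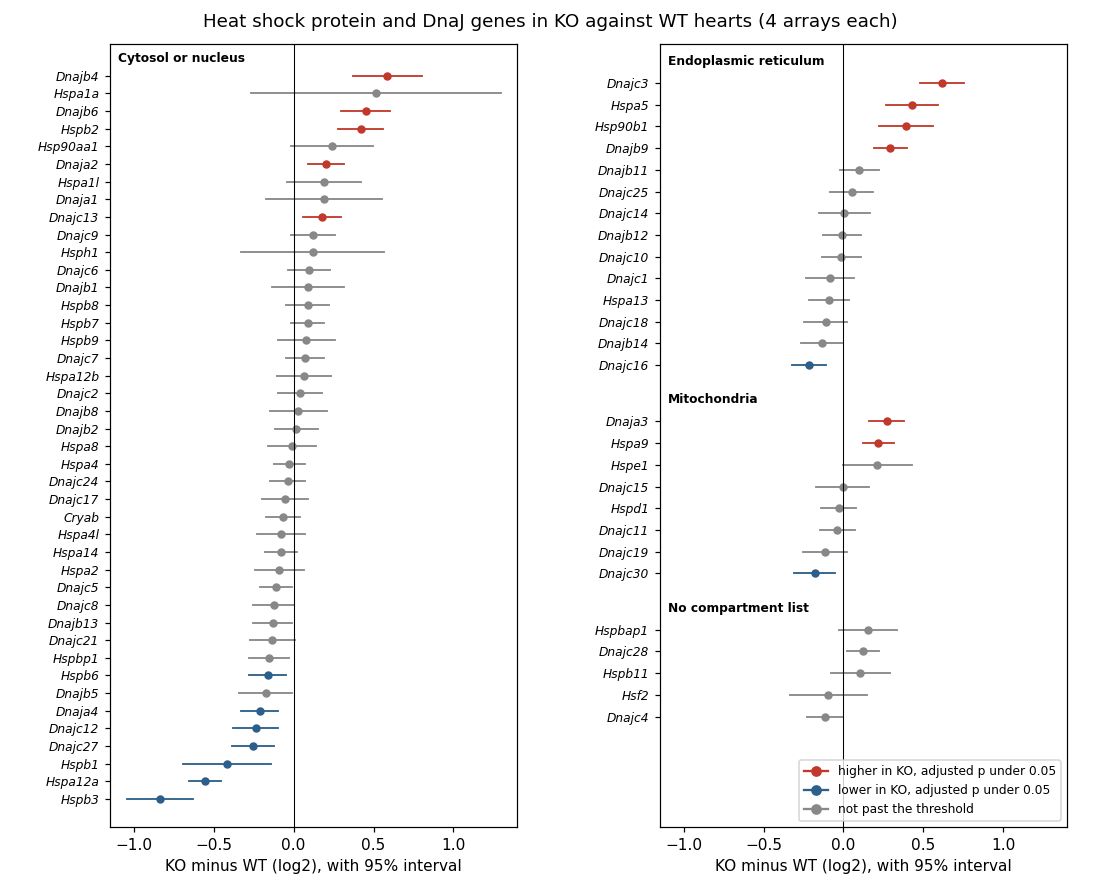
Difference between KO and WT hearts (log2, x axis) for each of the 69 members tested, grouped by compartment, with bars giving the 95% interval from limma. Red marks the 11 members higher in KO, blue the 9 lower and grey the rest, and the widest interval is that of Hspa1a, from -0.27 to 1.30.

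By compartment, the members that changed were spread over all 3. In the cytosol or nucleus, 5 rose and 7 fell of 42 tested, with a median difference of 0.003, so 11.9% rose and 16.7% fell, beside 10.8% and 13.9% of all genes. In the ER, 4 rose and 1 fell of 14 tested, with a median of -0.001, so 28.6% rose and 7.14% fell. In mitochondria, 2 rose and 1 fell of 8 tested, with a median of -0.02, so 25% rose and 12.5% fell. Whether the compartments differ from one another was not tested. The 5 tested members placed in no compartment had no call in limma, and 1 of them, Dnajc28, was higher at an unadjusted p under 0.05. Leaving out KO replicate 1 or WT replicate 4 left 4 cytosolic members lower, and leaving out WT replicate 2 left 2 ER members lower.

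Among ER chaperones, the genes that rose were the main chaperone, its HSP90 counterpart and a pair of J-domain partners. Hspa5 encodes BiP, the HSP70 of the ER lumen and a sensor-binding regulator of the unfolded protein response. Hsp90b1 encodes GRP94, the HSP90 of the ER, and Dnajc3 and Dnajb9 encode J proteins of BiP, the product of the first also being known as an inhibitor of the kinases that phosphorylate the initiation factor eIF2alpha. The RefSeq promoters (build GRCm38.p6, from 250 bases before to 50 after the start of the gene) of Hspa5, Hsp90b1 and Dnajc3 are shown because all 3 hold the classical ER stress element, CCAAT and CCACG with any 9 bases between them, which is in capitals. Hspa5 lies at chr2:34771840-34772139 on the + strand, Hsp90b1 at chr10:86705395-86705694 on the - strand and Dnajc3 at chr14:118937682-118937981 on the + strand.
Hspa5: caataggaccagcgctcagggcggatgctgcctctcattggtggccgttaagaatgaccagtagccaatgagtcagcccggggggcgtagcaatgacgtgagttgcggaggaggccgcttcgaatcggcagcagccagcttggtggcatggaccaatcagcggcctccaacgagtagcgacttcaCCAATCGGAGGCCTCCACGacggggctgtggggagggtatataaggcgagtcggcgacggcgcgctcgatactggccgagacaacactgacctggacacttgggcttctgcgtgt
Hsp90b1: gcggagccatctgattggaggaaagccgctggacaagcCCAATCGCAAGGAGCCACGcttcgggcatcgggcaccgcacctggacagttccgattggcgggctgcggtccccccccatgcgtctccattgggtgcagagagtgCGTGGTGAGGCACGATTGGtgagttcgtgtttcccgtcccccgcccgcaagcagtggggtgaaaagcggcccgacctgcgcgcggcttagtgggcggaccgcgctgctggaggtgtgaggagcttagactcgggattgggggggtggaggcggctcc
Dnajc3: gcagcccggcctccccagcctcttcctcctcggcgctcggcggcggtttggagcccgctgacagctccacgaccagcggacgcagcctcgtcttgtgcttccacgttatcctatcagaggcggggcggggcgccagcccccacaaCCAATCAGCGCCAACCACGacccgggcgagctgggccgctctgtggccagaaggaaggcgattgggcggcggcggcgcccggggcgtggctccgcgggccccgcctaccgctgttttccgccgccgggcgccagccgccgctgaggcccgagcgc
The element was searched on both strands. It starts 65 bases before the gene start in Hspa5 and 105 before it in Dnajc3, and in Hsp90b1 it occurs once on each strand. Of all 32851 RefSeq promoters 0.119% (39) hold it, and of the 60 members with a promoter in the table these 3 hold it. The Dnajb9 promoter does not hold these letters in this window. A match describes the sequence and shows no binding.

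Dnajc3 had the largest rise of the 74 genes. It read 9.00, 9.02, 9.03 and 8.97 in the 4 KO hearts, against 8.40, 8.22, 8.42 and 8.50 in the 4 WT hearts. The KO hearts were tightly grouped and all above the WT hearts. The difference was 0.62 ± 0.06 (SE), a ratio of 1.53 (adjusted p = 6.99e-05). Hspa5 read 11.57, 11.51, 11.69 and 11.59 in KO hearts, against 11.34, 11.11, 11.01 and 11.18 in WT hearts. The groups did not overlap, although WT replicate 1 came close to the lowest KO heart. Hspa5 rose by 0.43 ± 0.07 (95% interval 0.27 to 0.59), a ratio of 1.35 (adjusted p = 0.00184). Hsp90b1 read 10.46, 10.40, 10.56 and 10.36 in KO hearts, against 10.25, 9.97, 9.94 and 10.05 in WT hearts. WT replicate 1 was again the highest of its group, below every KO heart. Hsp90b1 rose by 0.39 ± 0.08, a ratio of 1.31 (adjusted p = 0.00355). Dnajb9 read 9.63, 9.61, 9.64 and 9.65 in KO hearts, against 9.41, 9.28, 9.31 and 9.35 in WT hearts. It rose by 0.29 ± 0.05 without overlap (adjusted p = 0.00133).

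Most other ER members did not pass the threshold. Dnajb11, another J protein of BiP, differed by 0.10 (interval -0.02 to 0.22, adjusted p = 0.227). Dnajc10, a J protein with disulfide reductase activity, differed by -0.01 (interval -0.14 to 0.11). Hspa13, a further HSP70-like protein of the ER, differed by -0.09 (adjusted p = 0.287). Dnajc16, a J protein of the ER membrane, fell. It read 8.38, 8.43, 8.38 and 8.36 in KO hearts, against 8.67, 8.55, 8.64 and 8.55 in WT hearts. The lowest WT heart was above the highest KO heart, and the difference was -0.21 ± 0.05 (adjusted p = 0.00891). The other 6 ER members (Dnajb12, Dnajb14, Dnajc1, Dnajc14, Dnajc18 and Dnajc25) lay between -0.14 and 0.05. The 7 members listed as targets of the unfolded protein response are all ER members, so the 4 that rose are the 4 genes just given, and the list leaves out Dnajc16, which fell. Of the 7, 4 rose (57.1%, beside 10.8% of all genes) and 0 fell, also at an unadjusted p under 0.05 in limma, with a median difference of 0.29. Averaged over those 7, the KO hearts lay 0.20 to 0.29 above the WT mean and the WT hearts between -0.05 and 0.06. The list was drawn up with earlier results of these data known, so its direction is a description. The macrophage markers given above were higher in the same 4 hearts. Among 20 genes of the immediate early class, 7 rose (35%) and 1 fell (5%), beside 10.8% and 13.9% of all genes. Their list mean was 0.15 to 0.19 in KO hearts and -0.12 to 0.16 in WT hearts. The part of either list in the ER values was not tested.

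Partners of the ER chaperones outside the set were read as well, from a list of folding enzymes, degradation factors and sensors. Of 23 tested, 11 rose, which is 47.8% beside 10.8% of all genes, and 0 fell, with 2 lower at an unadjusted p under 0.05 in limma. The median difference was 0.22. This list too was drawn up with earlier results of these data known, so its share is a description. P4hb, a protein disulfide isomerase, differed by 0.63 and Pdia6, another one, by 0.55, with adjusted p = 1.3e-05 and 0.000292. Sdf2l1, which cooperates with the ER J proteins, read 8.21, 8.09, 8.26 and 8.07 in KO hearts, against 7.37, 7.02, 6.81 and 7.17 in WT hearts, a rise of 1.07 ± 0.11 (adjusted p = 6.14e-05). The other 8 that rose, named after their values were seen, were Calr, Pdia3, Pdia4, Manf, Creld2, Herpud1, Edem1 and Xbp1, with differences of 0.23 to 0.46. They include lectin and oxidoreductase chaperones, ER-associated degradation factors and the transcription factor XBP1. The sensor gene Atf6 differed by -0.15 (adjusted p = 0.0596) and Ern1 by -0.02, and the stress-induced death factor Ddit3 by 0.03 (adjusted p = 0.799).

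**Figure D2:**
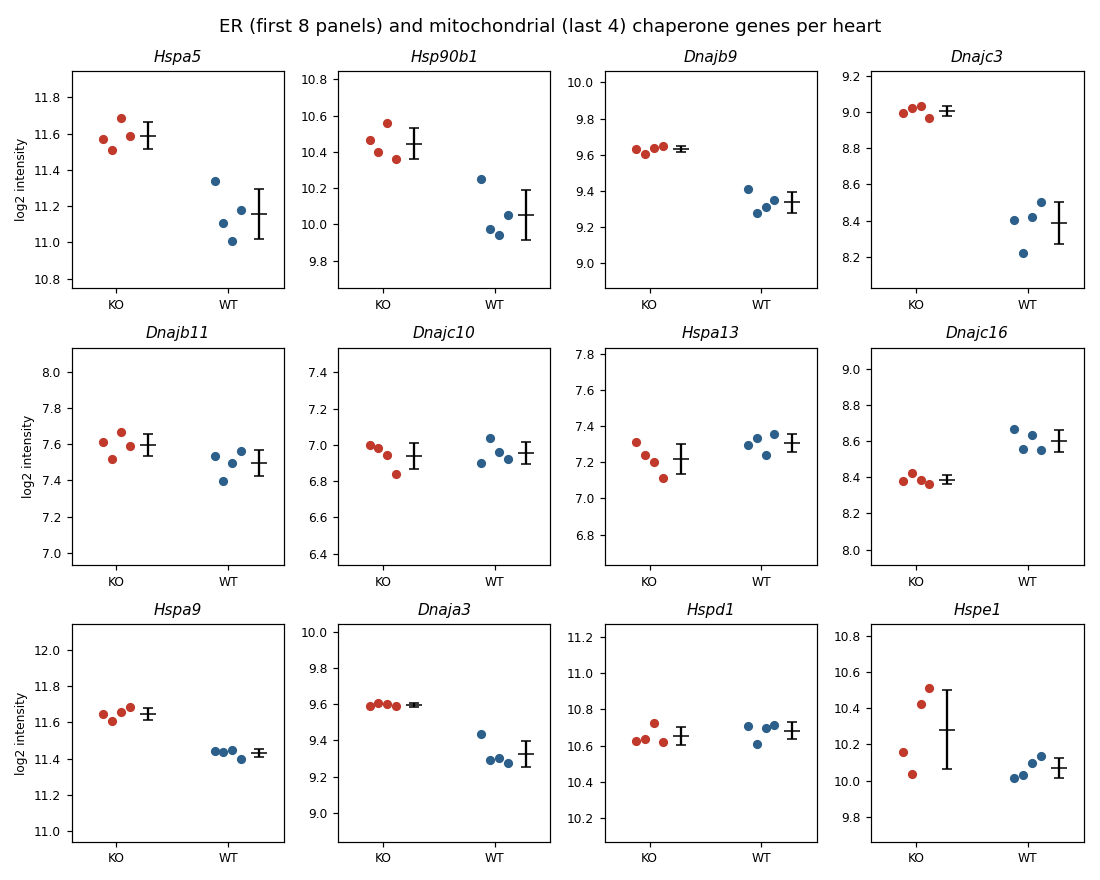
Log2 intensity (y axis) of 8 ER and 4 mitochondrial chaperone genes in each KO heart (red) and WT heart (blue), with bars showing mean and SD. Hspa5, Hsp90b1, Dnajb9, Dnajc3, Hspa9 and Dnaja3 lie above WT in all 4 KO hearts, Dnajc16 lies below, and the other 5 genes overlap.

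Among mitochondrial chaperones, the main HSP70 of the matrix and its folding J protein rose, and the chaperonin genes and the J proteins of the import motor did not pass the threshold. Hspa9 encodes mortalin, the HSP70 that pulls precursors through the inner membrane and folds them in the matrix. It read 11.64, 11.60, 11.65 and 11.69 in KO hearts, against 11.44, 11.43, 11.45 and 11.40 in WT hearts. The groups stood clear of each other, and Hspa9 rose by 0.22 ± 0.04 (adjusted p = 0.0049). Dnaja3, its J protein in the matrix, read 9.59, 9.61, 9.60 and 9.59 in KO hearts, against 9.43, 9.29, 9.30 and 9.27 in WT hearts. It rose by 0.27 ± 0.05 without overlap (adjusted p = 0.00294). Dnajc30, a J protein of the inner membrane, read 8.09, 7.97, 7.99 and 7.92 in KO hearts, against 8.18, 8.24, 8.06 and 8.22 in WT hearts. KO replicate 1 overlapped WT replicate 3, and the difference was -0.18 ± 0.06 (adjusted p = 0.0478). That call was made in 2 of 8 fits that left out 1 array, with adjusted p up to 0.111, and was lost without KO replicate 2, 3 or 4 or WT replicate 1, 2 or 4.

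Dnajc19 and Dnajc15, J proteins of the import motor, differed by -0.11 (adjusted p = 0.211) and -0.01 (adjusted p = 0.972). Hspd1, the HSP60 chaperonin, differed by -0.03 (interval -0.14 to 0.08), and the groups overlapped. Hspe1, its lid, read 10.16, 10.04, 10.42 and 10.51 in KO hearts, against 10.02, 10.03, 10.10 and 10.14 in WT hearts. KO replicates 1, 3 and 4 stood above all WT hearts, the first narrowly, and KO replicate 2 within them. The difference of 0.21 ± 0.10 did not pass (adjusted p = 0.146), though it was 0.29 without KO replicate 2 (adjusted p = 0.0389). Among 15 mitochondrial partners, 3 rose and 3 fell, which is 20% and 20% beside 10.8% and 13.9% of all genes. Clpx, the unfoldase of the ClpXP protease, rose by 0.44 and Grpel1, the exchange factor of mortalin, by 0.34 (adjusted p = 0.000313 and 0.00103). Grpel2, its paralogue, rose by 0.20 and lost the call in 7 of 8 fits without 1 array, that is all but the one without KO replicate 2 (adjusted p up to 0.0921). Trap1, the mitochondrial HSP90, fell by 0.31 (adjusted p = 0.00105). Pam16, an import-motor J-like protein, fell by 0.19 and Clpb, a disaggregase, by 0.16, and both lost the call in several fits without 1 array, Pam16 without KO replicate 1, 2 or 3 or WT replicate 2 or 3 and Clpb without KO replicate 1, 2 or 3 or WT replicate 1, 2 or 4 (adjusted p up to 0.0716 and 0.113).

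The cytosolic J proteins moved in both directions. Dnajb4, a J partner of the cytosolic HSP70s, read 11.00, 10.92, 11.19 and 10.96 in KO hearts, against 10.39, 10.19, 10.50 and 10.64 in WT hearts. All KO hearts were above all WT hearts, and it rose by 0.59 ± 0.10, a ratio of 1.5 (adjusted p = 0.00148). Dnajb6, which keeps aggregation-prone proteins soluble and whose gene is mutated in a human limb-girdle muscular dystrophy, read 5.84, 5.67, 5.80 and 5.85 in KO hearts, against 5.37, 5.18, 5.45 and 5.36 in WT hearts. It rose by 0.45 ± 0.07 without overlap (adjusted p = 0.000956). Dnaja2, a further such partner, rose by 0.20 ± 0.05 (adjusted p = 0.0149), reading 10.08 to 10.14 in KO hearts and 9.79 to 9.93 in WT hearts. Dnajc13, an endosomal J protein, rose by 0.18 ± 0.05 (adjusted p = 0.032). Its 15 clusters all had a higher KO mean, by 0.09 to 0.28, and KO and WT hearts did not overlap on 5 of them. Of all genes tested, 11.7% had the KO hearts wholly above and 28.6% did not overlap in either direction. The clusters read 1 gene in the same 8 hearts, so they are not independent of one another. The Dnajc13 call was lost without KO replicate 1, 2 or 3 or WT replicate 2, 3 or 4 (adjusted p up to 0.0884).

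Dnaja4, a J protein of the HSP40 type, Dnajc12, a J partner of aromatic amino acid hydroxylases, and Dnajc27, a small GTPase with a J domain, fell. Dnaja4 read 8.69, 8.62, 8.73 and 8.72 in KO hearts, against 8.90, 8.82, 8.91 and 8.97 in WT hearts, a difference of -0.21 ± 0.05 (adjusted p = 0.0118). Dnajc27 read 6.26, 6.33, 6.16 and 6.36 in KO hearts, against 6.45, 6.56, 6.52 and 6.60 in WT hearts, a difference of -0.26 ± 0.06 (adjusted p = 0.0102). For both genes every KO heart was below every WT heart. Dnajc12 read 6.48, 6.59, 6.41 and 6.53 in KO hearts, against 6.76, 6.60, 6.77 and 6.83 in WT hearts. The highest KO heart lay just under the lowest WT heart, and the difference was -0.24 ± 0.06 (adjusted p = 0.0196). That call was lost without KO replicate 1 or 3 or WT replicate 3 or 4 (adjusted p up to 0.0559). Over the whole J family, 7 rose and 5 fell of 40 tested, which is 17.5% and 12.5% beside 10.8% and 13.9% of all genes.

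Within the HSP70 and HSP110 families, 2 rose (Hspa5 and Hspa9, given above) and 1 fell of 13 tested. These are 15.4% and 7.69%, beside 10.8% and 13.9% of all genes tested. The cytosolic gene that changed was a distant relative of the stress proteins. Hspa12a, an HSP70 with an unusual ATPase domain, read 7.09, 7.08, 7.10 and 7.10 in KO hearts, against 7.60, 7.61, 7.71 and 7.67 in WT hearts. The KO hearts were almost identical and all below WT. It fell by 0.55 ± 0.05, to 68.1% of WT (adjusted p = 1.92e-05). Hspa8, the constitutive HSP70, differed by -0.01 (interval -0.16 to 0.14), and Hspa4, an HSP110-type exchange factor, by -0.03 (interval -0.13 to 0.07). Hspa2, best known from the testis, differed by -0.09 (adjusted p = 0.4).

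Of 8 small heat shock protein genes tested, 1 rose and 3 fell, which is 12.5% and 37.5% beside 10.8% and 13.9% of all genes. Hspb3 and Hspb2, whose products form a joint oligomer in muscle, moved in opposite directions. Hspb3 had the largest difference of any member. It read 6.32, 6.41, 6.21 and 6.61 in KO hearts, against 7.23, 7.39, 7.05 and 7.22 in WT hearts. Every KO heart was well below every WT heart, and Hspb3 fell by 0.84 ± 0.09, to 55.9% of WT (adjusted p = 0.00013). Hspb2 read 9.17, 9.27, 9.04 and 9.00 in KO hearts, against 8.74, 8.67, 8.71 and 8.69 in WT hearts. It rose by 0.42 ± 0.06 without overlap (adjusted p = 0.000926). Cryab, the alphaB-crystallin gene that lies next to Hspb2 in the genome and guards desmin filaments, differed by -0.07 (interval -0.18 to 0.04).

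Hspb1, an actin-associated holdase, read 11.17, 10.96, 11.33 and 11.10 in KO hearts, against 11.37, 11.86, 11.31 and 11.68 in WT hearts. KO replicate 3 overlapped the WT hearts. Hspb1 fell by 0.41 ± 0.12 (adjusted p = 0.0333), and the call was lost without KO replicate 1, 2 or 4 or WT replicate 2 or 4 (adjusted p up to 0.0933). Its other cluster, which is numbered among clusters of the gene's own chromosome, differed by -0.51 without overlap (adjusted p = 0.00596). Hspb6, a cardiac holdase and target of protein kinase A, read 12.87, 12.85, 12.86 and 12.71 in KO hearts, against 12.98, 13.03, 12.96 and 12.97 in WT hearts. The groups did not overlap, and it fell by 0.16 ± 0.05 (adjusted p = 0.0427). That call was lost in each of the 8 fits without 1 array, of either group (adjusted p = 0.0588 to 0.0845). Hspb7, which binds filamin in muscle, differed by 0.09, Hspb8, the partner of Bag3, by 0.09 and Hspb9 by 0.08, and none of them passed.

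**Figure D3:**
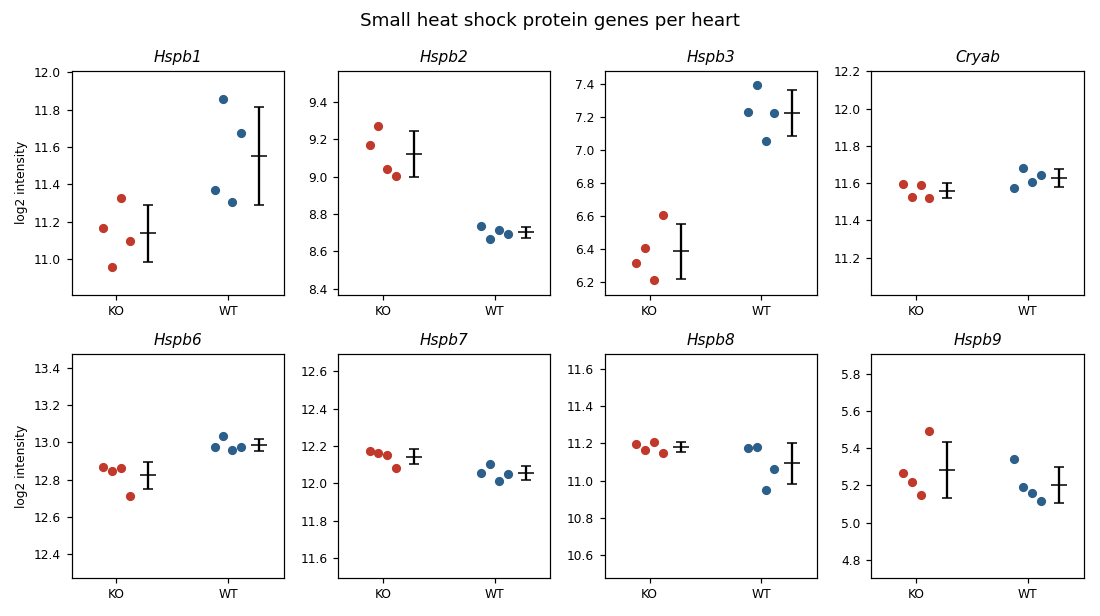
Log2 intensity (y axis) of the 8 small heat shock protein genes in each KO heart (red) and WT heart (blue), with bars showing mean and SD. Hspb3 lies between 6.21 and 6.61 in KO hearts and between 7.05 and 7.39 in WT hearts, whereas Hspb2 lies higher in KO hearts and Cryab overlaps.

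Some of the genes listed for the heat shock response varied widely between hearts of the same group, and others little. Of 13 genes listed for the heat shock response, 0 rose in limma, also at an unadjusted p under 0.05, and 1 fell, Hspb1. These are 0% and 7.69%, beside 10.8% and 13.9% of all genes. The median difference of the list was 0.09, with 7 genes above 0 and 6 below. Leaving out 1 array gave medians from -0.0046 to 0.12. Without KO replicate 2, 1 gene of the list rose, and the fall was lost as given above for Hspb1. The median spread within groups was 0.16 (SD, log2) for this list, against 0.10 for all genes tested. For Hspa1a, Hsph1, Dnaja1, Hspb1, Hsp90aa1, Dnajb1 and Hspe1 the spread was at percentiles 86.3 to 99.9 of all genes tested. For Hspa4, Cryab and Hspd1 it was at 1.07, 6.75 and 9.68, and for Hspb8, Hspa8 and Hspa4l at 34.2, 49.5 and 50.3. Promoters are shown for the stress-induced HSP70 gene Hspa1a (chr17:34972107-34972406, - strand), for the HSP110 gene Hsph1 (chr5:149636266-149636565, - strand) and for Hspe1 (chr1:55087898-55088197, + strand), from RefSeq GRCm38.p6, because their heat shock elements can be read in them. Capitals mark inverted GAA units, of 2 units (GAANNTTC or TTCNNGAA) or of 3 (the same followed by any 2 bases and a further GAA or TTC in turn), which overlap where units adjoin.
Hspa1a: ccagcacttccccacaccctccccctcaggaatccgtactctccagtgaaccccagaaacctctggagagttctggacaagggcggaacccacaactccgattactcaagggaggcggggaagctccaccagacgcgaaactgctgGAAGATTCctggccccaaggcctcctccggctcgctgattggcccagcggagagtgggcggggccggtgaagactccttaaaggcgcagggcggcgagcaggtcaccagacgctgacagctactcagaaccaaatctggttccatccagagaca
Hsph1: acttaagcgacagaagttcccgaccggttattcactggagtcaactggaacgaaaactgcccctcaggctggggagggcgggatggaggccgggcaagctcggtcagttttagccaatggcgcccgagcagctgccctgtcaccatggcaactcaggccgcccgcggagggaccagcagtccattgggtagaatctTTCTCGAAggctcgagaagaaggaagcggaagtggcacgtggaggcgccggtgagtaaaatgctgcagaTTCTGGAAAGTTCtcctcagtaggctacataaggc
Hspe1: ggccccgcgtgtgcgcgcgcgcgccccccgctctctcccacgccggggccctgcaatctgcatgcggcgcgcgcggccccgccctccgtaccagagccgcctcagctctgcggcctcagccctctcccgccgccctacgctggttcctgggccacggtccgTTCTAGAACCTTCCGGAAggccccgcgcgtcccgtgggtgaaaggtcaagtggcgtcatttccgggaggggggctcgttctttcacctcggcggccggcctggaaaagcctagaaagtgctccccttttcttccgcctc
Searched on both strands, the element of 3 units is in 0.603% of all promoters (198). Among the 60 members with a promoter, it is in 6 of 77 promoters, those of Dnajb6, Hspd1, Hspe1 and Hsph1. The element of 2 units is in 15.1% of all promoters and in 17 of these 77, belonging to 15 members. Neither Dnajb1 promoter holds either element in this window. The Hspa1a window matches that of Hspa1b at 296 of 300 bases. These matches show no binding.

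Hspa1a read 8.23, 7.52, 8.74 and 9.12 in KO hearts, against 8.15, 7.23, 7.60 and 8.57 in WT hearts. Both groups covered a wide range and overlapped, with replicate 2 lowest in each. The difference of 0.52 ± 0.35 had an interval of -0.27 to 1.30 (adjusted p = 0.341). Its spread within groups, 0.64, was at percentile 99.9 of all genes tested. Hspa1b shares its sequence closely, and the cluster they share read 9.20, 8.57, 9.57 and 10.09 in KO hearts, against 8.78, 7.95, 8.47 and 9.40 in WT hearts. The groups overlapped on this cluster, and its means differed by 0.71. It carries both gene symbols, so it is not among the 74 genes and was not tested. Its order of hearts in each group was that of the Hspa1a cluster. Hsph1, an exchange factor of HSP70, read 7.91, 7.57, 8.38 and 8.41 in KO hearts, against 8.07, 7.58, 7.84 and 8.31 in WT hearts, and differed by 0.12 (adjusted p = 0.729). Hsp90aa1, the inducible cytosolic HSP90, read 9.58, 9.42, 9.84 and 9.89 in KO hearts, against 9.43, 9.32, 9.34 and 9.69 in WT hearts. It differed by 0.24 (interval -0.02 to 0.50, adjusted p = 0.166). Dnajb1, the main heat-induced J protein, differed by 0.09 (adjusted p = 0.589).

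The same hearts were low or high for several of these genes. Over the 13 genes, KO replicate 2 was the lowest KO heart in 9, and WT replicate 2 the lowest WT heart in 8. Over all genes tested, KO replicate 2 was lowest of its group in 16.9% and WT replicate 2 in 23.7%. WT replicate 4 was the highest WT heart in 7 of the 13, and KO replicates 4 and 3 the highest KO hearts in 6 and 5. Over all genes tested, these hearts were highest of their group in 21.0%, 28.9% and 22.8%. The order did not hold for every gene. KO replicate 4 was also the lowest KO heart in 4 of the 13, and WT replicate 2 the highest WT heart in 3. They held those places in 37.2% and 37.2% of all genes tested. Hsf2, a second heat shock factor, differed by -0.09 (interval -0.34 to 0.15).

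**Figure D4:**
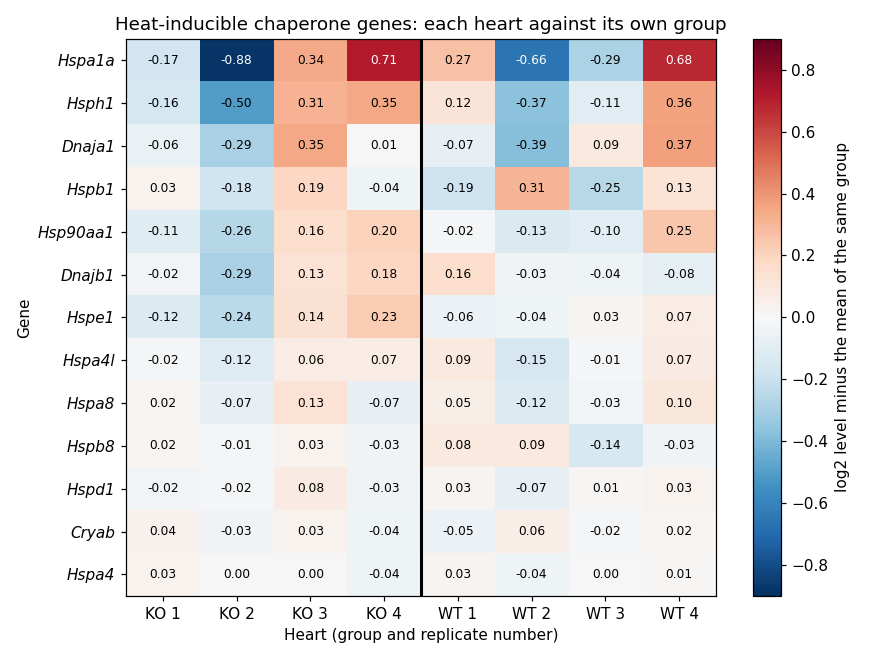
Deviation of each heart from the mean of its own group (log2, colour and printed value) for the 13 genes of the heat shock response list. Rows are genes, ordered by spread, and columns are the KO and WT hearts. KO replicate 2 and WT replicate 2 are low for Hspa1a, Hsph1, Dnaja1 and Hsp90aa1, and WT replicate 4 is high for these genes.

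Several members are read by more than 1 cluster, and for 4 of them (Dnaja1, Hspb1, Hspd1 and Hspe1) the brightest cluster carries a number that lies among clusters of another chromosome. The gene table gives no location for a cluster, so which copy it reads was not tested. On the cluster numbered among those of the own chromosome, Dnaja1 differed by -0.05 (adjusted p = 0.859), whereas on the brightest it differed by 0.19 (adjusted p = 0.462). Hspe1 differed by 0.19 (adjusted p = 0.137) and Hspd1 by -0.01 on theirs, both near the values above. Among the partner genes past the threshold whose chromosome is known, the same holds for Pam16, which differed by -0.25 on its own-chromosome cluster, with no overlap there either.

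**Figure D5:**
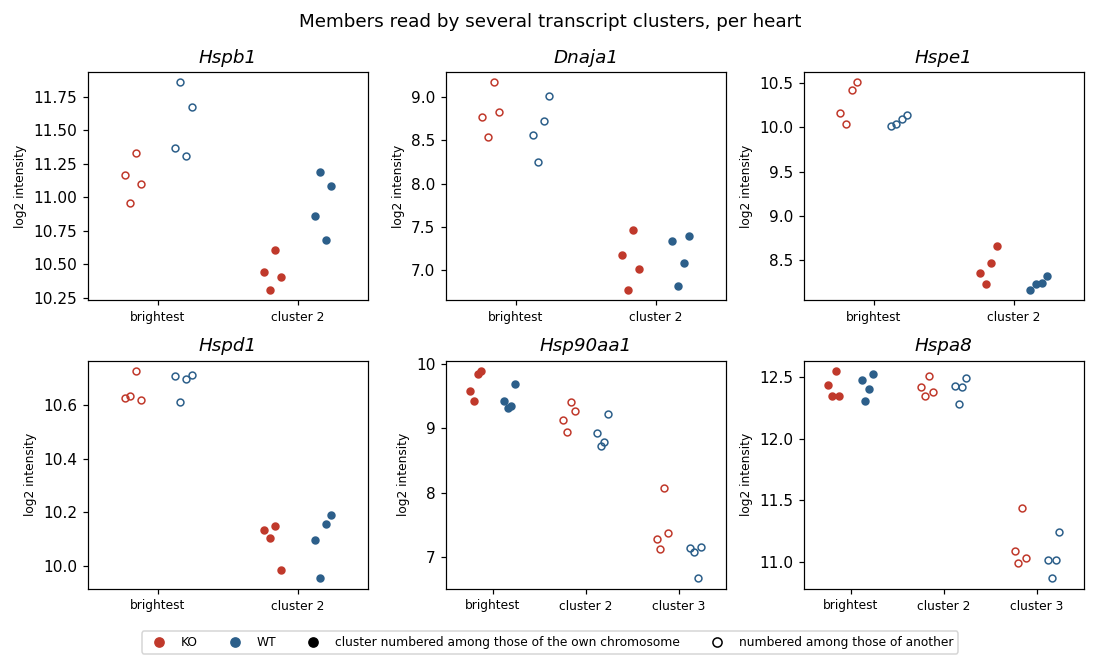
Log2 intensity (y axis) by transcript cluster (x axis, brightest first) of 6 members read by several clusters, in KO hearts (red) and WT hearts (blue). Filled points mark clusters numbered among those of the gene's own chromosome and open points those numbered among another's, and Hspb1 is lower in KO on both of its clusters.

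Most co-chaperones of the cytosolic machines did not pass the threshold. Of 35 partners, 2 rose and 4 fell, which is 5.71% and 11.4% beside 10.8% and 13.9% of all genes. The median difference was -0.02. Pfdn1, a prefoldin subunit, rose by 0.44 (adjusted p = 0.000254). Fkbp4 and Unc45b fell by 0.67 and 0.48 (adjusted p = 1.64e-05 and 5.16e-05). The first is an HSP90 immunophilin of steroid receptors and the second the HSP90 co-chaperone that folds muscle myosin. Fkbp5, the counterpart of Fkbp4, read 8.48, 8.42, 8.56 and 7.98 in KO hearts, against 7.12, 6.10, 8.02 and 7.70 in WT hearts. WT replicate 3 overlapped KO replicate 4, and the rise of 1.13 ± 0.34 (adjusted p = 0.0357) was lost without KO replicate 1, 2 or 3 or WT replicate 1 (adjusted p up to 0.0854). Bag6, a triage factor, fell by 0.15 and lost the call without KO replicate 1 or 2 or WT replicate 1, 3 or 4 (adjusted p up to 0.065). The fourth that fell, Hsbp1, named after its value was seen, differed by -0.20. Bag3, the HSP70 co-chaperone that pairs with Hspb8, differed by 0.13 (adjusted p = 0.177), and the 8 subunit genes of the cytosolic chaperonin, Tcp1 and Cct2 to Cct8, had no call.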

How the data were processed

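RNA of 8 mouse hearts was read on 1 Affymetrix array each. The deposited table holds intensity values on a linear scale for 27541 transcript clusters, and Partek and RMA are named in the submitters' processing notes without versions or roles. Neither the genome build nor the steps from scan to table are given in the sources used. Here log2 was taken of each value. Clusters with 1 gene symbol in the platform annotation were kept (21631, with 1317 holding several symbols and 4593 none), and 21544 of these matched RefSeq GRCm38.p6 by Entrez identifier with no symbol changed. Of several clusters of a gene, the one with the brightest mean was used. A floor at the 25th percentile of the mean signal (log2 4.50) removed 4983 of 19933 genes.

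KO and WT were compared with the moderated two-sided test of limma 3.58.1 (eBayes after lmFit, R 4.3.3, residual degrees of freedom 6), Benjamini-Hochberg adjusted over 14950 genes at a threshold of 0.05. No block was used, since the replicate numbers are not said to pair mice. The number of arrays limits the precision, and the labels give no batch. Promoters came from a RefSeq table that held 60 of the members.

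Members and gene lists were chosen with earlier results of these data known. The genes named were the targeted gene, a set of well-known chaperones, every called member, with values per heart for the 8 largest rises and 8 largest falls, and up to 3 rises and 3 falls with the smallest p in each partner list. Other genes given by name lie outside this rule, and not all are marked so where they appear. Among the unmarked are Atf6, Ern1, Ddit3, Bag3, Dnajb11, Dnajc10, Hspa13, Dnajc15, Dnajc19, Dnajc11, Dnajc5 and Hspa1l. All of these should be read as chosen after their values were seen. Alternatives covered other scaling, filters, cluster rules, variance models, a stricter threshold, a replicate block and leaving out each array. Own-chromosome clusters and the heat shock element of 2 units were added after the data were seen.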

Additional observations from a re-analysis of the deposited data

Results flagged for a closer look

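Within groups of 4 hearts, 1 heart stood apart from the other 3 by Dixon's criterion in 8 of 98 groups over 49 named genes, where chance gives about 4.9, or 1 in 20. In KO hearts, replicate 4 read 8.50 for Hdac3 while the others lay at 8.59. The same KO heart read 12.71 for Hspb6, with the others between 12.85 and 12.87, and 9.27 for Dnajc13, below the other 3. KO replicate 3 was high, at 10.73 for Hspd1 and 10.14 for Dnaja2. In WT hearts, replicate 2 was low, at 10.61 for Hspd1, 9.79 for Dnaja2 and 8.13 for Grpel2.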

How the results depend on the processing

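Of the 20 called members, 12 (9 higher, 3 lower) were called in every alternative in which they were tested, 17 planned and 1 added. The count of 4 ER members that rose, which are also the 4 of the unfolded protein response list, was the same in every alternative. Over 49 named genes, 783 of 881 values kept direction and call, 89 lost the call, 1 gained it and 8 reversed. Part of this agreement was fixed in advance. Own-chromosome clusters changed the values of Dnaja1, Hspb1, Hspd1 and Hspe1 only, and the mean of the clusters left genes with 1 cluster as they were. A gene not called at 0.05 also cannot be called at 0.01. All scalings left the median of all genes between -0.03 and -0.01. At an adjusted p under 0.01, 961 genes were higher and 1249 lower, with 3 members lower, 3 cytosolic members higher and 2 lower, 0 mitochondrial members and 0 heat shock response genes lower, 1 cytosolic partner higher and 2 lower, and 1 mitochondrial partner lower. Over all genes tested, deviations of same-numbered hearts from their group means correlated at -0.04, 0.03, -0.04 and 0.08. Such values over all genes cannot tell whether the hearts were paired for some genes. Replicate 2 was the lowest heart in 9 (KO) and 8 (WT) of the 13 heat shock response genes. With the replicate block, 10 members were higher and 6 lower, 0 mitochondrial members and 0 heat shock response genes were lower, 2 cytosolic partners and 1 mitochondrial partner were lower, and the calls of Dnajc13, Dnajc30, Hspb1 and Hspb6 were lost. Quantile normalisation left 0 mitochondrial members and 1 mitochondrial partner lower, and keeping dim genes left 0 mitochondrial members lower. Array weights gave 2 ER members and 1 ER partner lower, median centring 1 ER partner, the filter at the 50th percentile 2, and intensity trend with robust variances 2 ER partners lower and 1 cytosolic partner higher. Leaving out 1 array gave 1213 to 1705 genes higher and 1658 to 1914 lower, 10 to 11 members higher and 5 to 8 lower, 4 to 6 cytosolic and 1 to 2 ER members lower, 0 to 1 mitochondrial members lower, 0 to 1 heat shock response genes higher and 0 to 1 lower, 1 to 2 cytosolic partners higher and 2 to 5 lower, and 1 to 3 mitochondrial partners lower. None of the reversed values belonged to a called gene. Hspa8 became 0.032 on the mean of its clusters, and without 1 array it ranged from -0.054 to 0.023, above 0 without KO replicate 2 or 4 or WT replicate 1 or 4. Hsph1 became -0.085 with array weights and ranged from -0.0046 (without WT replicate 2) to 0.29 without 1 array, and Dnaja1 became -0.051 on its own-chromosome cluster. The cause of these shifts was not tested. With 4 arrays a group, the 95% interval of a typical member reached 0.14 to either side.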

Other observations

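The 5 members below the floor on dim signal read between 2.72 and 4.49 on the log2 scale in all 8 hearts. They were Dnajb3, Dnajb7, Dnajc5b, Dnajc5g and Dnajc22, and no difference was tested for them. Hspa1l, a testis-enriched HSP70, read 7.38, 7.34, 7.47 and 7.59 in KO hearts, against 7.15, 6.99, 7.40 and 7.47 in WT hearts, and the groups overlapped (adjusted p = 0.222, limma). The mitochondrial J protein Dnajc11 differed by -0.04. Dnajc5, which guards synaptic vesicle proteins, differed by -0.11 without overlap and did not pass (adjusted p = 0.108).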
